A study of Mus musculus with 12 samples.

Results

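The occupancy of BMAL1 was measured by ChIP-seq against input chromatin in ethanol-treated mouse embryonic fibroblasts, with 2 BMAL1 libraries and 2 input libraries out of 12 libraries in the series. All 4740 regions that the authors called on these cells were used. The cells have the 129/sv background, are labelled Per1 -/-, Per2 -/-, Nr1d1 -/- and Nr1d2 -/-, and carry a transgene named PER2-ER. They had 0.1% ethanol (EtOH), the solvent of 4-hydroxytamoxifen, for 4 h. No 4-hydroxytamoxifen was added. The knockouts and the transgene are shared by the ChIP cells and the input cells, and the promoter that drives the transgene and the number of cell clones are not given in the sources used here. The comparison asks which genes and positions BMAL1 holds where PER1, PER2 and both REV-ERB proteins are missing and PER2-ER has not been given its ligand.

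BMAL1 (gene Arntl) is a bHLH-PAS transcription factor that pairs with CLOCK and binds E-box DNA, typically CACGTG, at the Per, Cry, Nr1d, Dbp and Bhlhe genes. PER and CRY proteins repress this pair and so close the main loop of the circadian clock, while the REV-ERB proteins NR1D1 and NR1D2 repress the Arntl gene in a second loop. In fibroblasts, as in most tissues, the target genes include further transcription factors, so that rhythms pass on to other genes.

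The strongest BMAL1 regions differed in how many E-boxes lay close to a gene start, and the stretches below show that range. They come from RefSeq promoters (GRCm38.p6) that a region overlapped, are given 5′ to 3′ on the strand of the gene, and all lie upstream of the start. Capitals mark CACGTG and, where it occurs, the near match AACGTG. The Tef stretch, 1 E-box in the strongest region, is chr15:81811264-81811323 on the + strand. The Ciart stretch, 3 E-boxes, is chr3:95882259-95882358 (−). The Cry1 stretch, with 1 of each form, is chr10:85185095-85185144 (−). The Nr1d1 stretch, with the near match alone, is chr11:98775388-98775437 (−). The Tulp4 stretch, with a close pair, is chr17:6106770-6106809 (+). The Nptn stretch, with a wider pair, is chr9:58582095-58582144 (+). The Lamp1 stretch, 4 E-boxes, is chr8:13159091-13159155 (+). The Mfsd1 stretch, 5 E-boxes, is chr3:67582678-67582757 (+). The Per1 stretch, from the weaker of its leading regions, is chr11:69098759-69098808 (+).
Tef: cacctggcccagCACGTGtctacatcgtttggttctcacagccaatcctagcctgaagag
Ciart: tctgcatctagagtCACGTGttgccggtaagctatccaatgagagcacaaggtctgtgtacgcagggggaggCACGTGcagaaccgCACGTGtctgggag
Cry1: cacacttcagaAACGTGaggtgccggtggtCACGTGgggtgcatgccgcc
Nr1d1: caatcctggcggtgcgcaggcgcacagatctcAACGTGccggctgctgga
Tulp4: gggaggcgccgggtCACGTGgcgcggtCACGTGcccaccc
Nptn: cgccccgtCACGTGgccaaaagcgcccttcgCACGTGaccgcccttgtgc
Lamp1: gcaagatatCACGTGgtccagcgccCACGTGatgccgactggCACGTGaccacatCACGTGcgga
Mfsd1: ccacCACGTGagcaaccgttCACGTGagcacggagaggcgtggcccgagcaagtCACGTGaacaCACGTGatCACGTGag
Per1: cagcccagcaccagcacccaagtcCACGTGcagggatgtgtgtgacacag

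BMAL1 libraries held many more reads in the 4740 regions than inputs did. Of 13502201 and 17635022 reads in the BMAL1 libraries, 2.63% (95% Wilson interval 2.62 to 2.64%) and 2.46% (2.45 to 2.47%) lay in regions. Of 13736646 and 28264889 input reads, the share was 0.160% (0.158 to 0.162%) and 0.169% (0.167 to 0.170%). The groups did not overlap, and the mean share was 15.5-fold higher in BMAL1 libraries. An exact two-sided permutation test over 2 against 2 libraries gave p = 0.333, the smallest it can give. These intervals cover counting error only. No label ties a library to a culture of its own. The p-values here therefore rest on library-to-library spread, possibly technical in part.

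Region values are given as reads per 10000000 library reads (RP10M) and are not divided by region length. The median region had 25.2 and 22.7 RP10M in the BMAL1 libraries (34 and 40 reads) and 2.18 and 2.12 RP10M in the inputs (3 and 6 reads). With edgeR's quasi-likelihood test and library totals as library sizes, 4719 of 4740 regions (99.6%) were above input at a Benjamini-Hochberg adjusted p below 0.05 and none was below it. At an unadjusted p below 0.05 the count was also 4719, and DESeq2 with the same totals called 4598. Because the regions had been selected as enriched in these cells, this count describes the list and is not separate evidence of binding. Over all regions the ratio to input had a median of 12.2-fold and quartiles of 8.64 and 18.2, and 144 regions exceeded 50-fold. Scaling factors computed over the regions themselves set the median ratio near 1 by construction, and then 426 regions were called above input.

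Replicates gave closely similar orders but were not identical. Spearman's rho across regions was 0.936 for the BMAL1 pair, as a description, since regions share their libraries. The median log2 ratio of replicate 2 to replicate 1 was −0.13, with quartiles of −0.38 and 0.09. Among 671 regions with at least 100 reads in both, it ran from −0.68 to 0.44. The lowest values were at Bax, an apoptosis gene (124 and 77.1 RP10M), and Coprs (147 and 91.9 RP10M). The 2 inputs differed by no more than counting noise (χ² per degree of freedom 0.957, against 1.38 for the BMAL1 pair). Against the 2 inputs of 4-hydroxytamoxifen-treated cells it was 0.979 and 0.954 for input replicate 1 and 1.03 and 1.04 for replicate 2. The labels give the inputs as separate libraries, and they were used as such. With the inputs summed as 1 library, 4725 regions were above input.

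The cells carried fibroblast transcripts and the BMAL1 partners. In the 2 EtOH mRNA libraries (71633387 and 60267540 counted reads), 8 of 10 fibroblast markers exceeded 1 RPKM in both. Thy1 was at 0 and Dcn had 11 and 7 reads. The summed RPKM of the fibroblast list was 7851 and 7400, against 3.45 and 3.16 for 6 epithelial and 2.94 and 3.22 for 6 blood markers, with Cd3e and Emr1 at 0. Summed levels were at most 0.0687 RPKM for endothelial, 0.357 for muscle and 3.13 for neural markers. Arntl had 18.5 and 19.5 RPKM and Clock 22.3 and 22.9. Of the genes labelled as knocked out, Per1 had 8.92 and 7.76 RPKM, Per2 96.4 and 93.5, Nr1d1 18.6 and 21.2, and Nr1d2 17.9 and 19.8. Reads of the PER2-ER transgene and of the remaining parts of a disrupted gene cannot be told apart from intact transcripts in counts per gene.

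A small number of regions held most of the signal. The 474 strongest regions (10% of the list, ranked by mean BMAL1 minus mean input) held 54.1% of the BMAL1 signal above input. The strongest 20 held 14.4%. Ranked singly by level, without input subtracted, both BMAL1 libraries shared 18 of their strongest 20 regions. Median BMAL1 levels fell from 168 RP10M in the strongest 10% to 18.6 RP10M in ranks of 50 to 75% and 11.1 RP10M in the lowest 25%. Strength also went with width, as the median length fell from 608.5 bp in the strongest 10% to 137 bp in the lowest 25%. Median input fell with it, from 5.72 to 1.07 RP10M, and the median ratio from 30.1- to 8.52-fold.

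**Figure D1:**
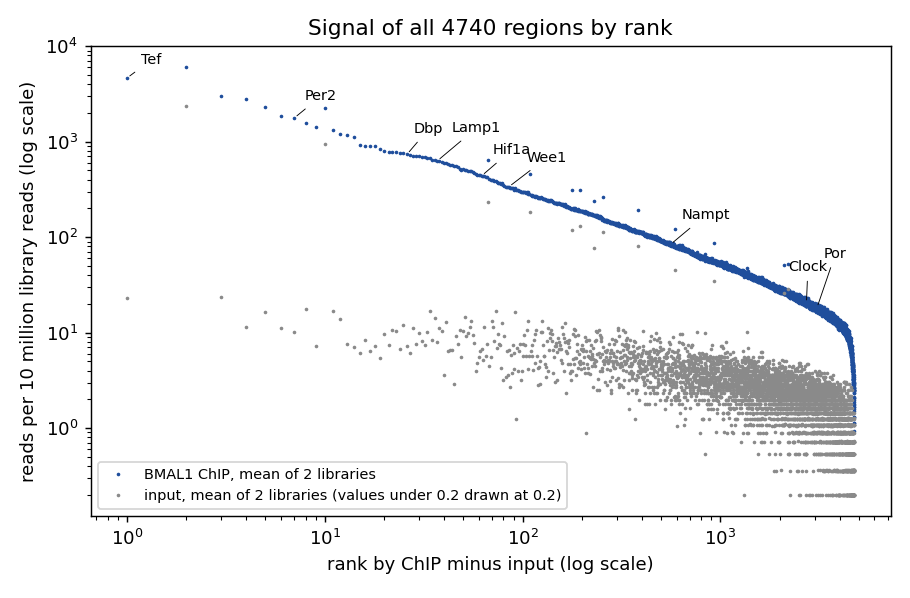
BMAL1 and input levels of the 4740 regions (RP10M, log axis) against rank by BMAL1 minus input (log axis), with some genes named. BMAL1 levels fall with rank from 4628 RP10M at Tef, apart from points above the curve with high input, such as Rn45s at rank 2. Inputs also fall, from 22.9 RP10M at Tef to a median of 1.07 RP10M in the lowest 25%.

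Clock genes held most of the strongest positions. At Tef, a PAR bZIP factor that binds D-box DNA, the region at chr15:81810207-81812077 had 4676 and 4580 RP10M in the BMAL1 libraries and 18.9 and 26.9 in the inputs. It was the strongest region by difference from input, at 191-fold over input (log2 7.58, SE 0.11, edgeR adjusted p = 1.66e-44). The region was picked by these same values among regions called as enriched, so its p-value is not separate evidence of binding. By the gene model in the count table the region lay in an intron, 7534 bp from the outermost Tef start. RefSeq places another Tef start there, and the printed Tef stretch lies just upstream of it. The region at the outermost start had 106 and 104 RP10M, on average 44.1 times less.

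The REV-ERB genes came next. Nr1d1 had 3077 and 2986 RP10M over its start (chr11:98773565-98776198; inputs 25.5 and 21.6), 132-fold above input. Nr1d2 had 2868 and 2700 RP10M (chr14:18238213-18239398; inputs 5.82 and 17.3), 206-fold. In both, every BMAL1 library stood far above every input. Nr1d1 had 3 regions within 10 kb. One of them, 7626 bp upstream (chr11:98782868-98783741), was itself rank 13 with 1147 and 1225 RP10M. Rora and Rorb, which encode activators that compete with REV-ERB, had no region within 10 kb.

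All 3 Period genes were occupied, in different layouts. Per1 had 6 regions within 10 kb. The strongest (chr11:69094548-69095702) lay 3254 bp upstream with 1881 and 1785 RP10M, and the one over the start had 376 and 399 RP10M. The printed Per1 stretch is from the latter. The other 4 lay between 61.9 and 124 RP10M on average, except one at 10.1 RP10M. Per2 had a single region over its start (chr1:91458543-91459894) with 1777 and 1749 RP10M, against 5.82 and 14.5 in the inputs. The highest fold of the authors' peak caller in the deposited values, 146, was at this Per2 region. Per3 was lower, with 631 and 667 RP10M over its start (rank 35).

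Both Cryptochrome genes, which encode the partners of PER in repression, had 1 region over the start. Cry1 had 1638 and 1493 RP10M (chr10:85184459-85185659) and Cry2 912 and 904 RP10M (chr2:92433607-92434523). The Cry1 level was above the Cry2 level in both libraries. All inputs at these sites were between 5.66 and 20.5 RP10M.

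Other repressors and D-box factors ranked among and below these. Ciart (listed as Gm129), a repressor of the CLOCK and BMAL1 pair, had 2426 and 2218 RP10M over its start (chr3:95881678-95883058; mean input 16.3). Bhlhe40 (DEC1), a bHLH repressor that competes for E-boxes, had 1338 and 1316 RP10M over its start. Bhlhe41 (DEC2) had its strongest region 9208 bp downstream of its start, beyond the end of the gene (chr6:145855648-145856212), with 930 and 935 RP10M, and the region over the start had only 104 and 121. Dbp had 5 regions within 10 kb. The one over its start had 734 and 733 RP10M, and the most distal downstream one (2217 bp) 354 and 312. Hlf had 338 and 319 RP10M at its start, while a region 26886 bp upstream (chr11:90417803-90418677) had 1418 and 1430 RP10M and was rank 9. Nfil3, a bZIP repressor at D-boxes, had no region within 10 kb.

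**Figure D2:**
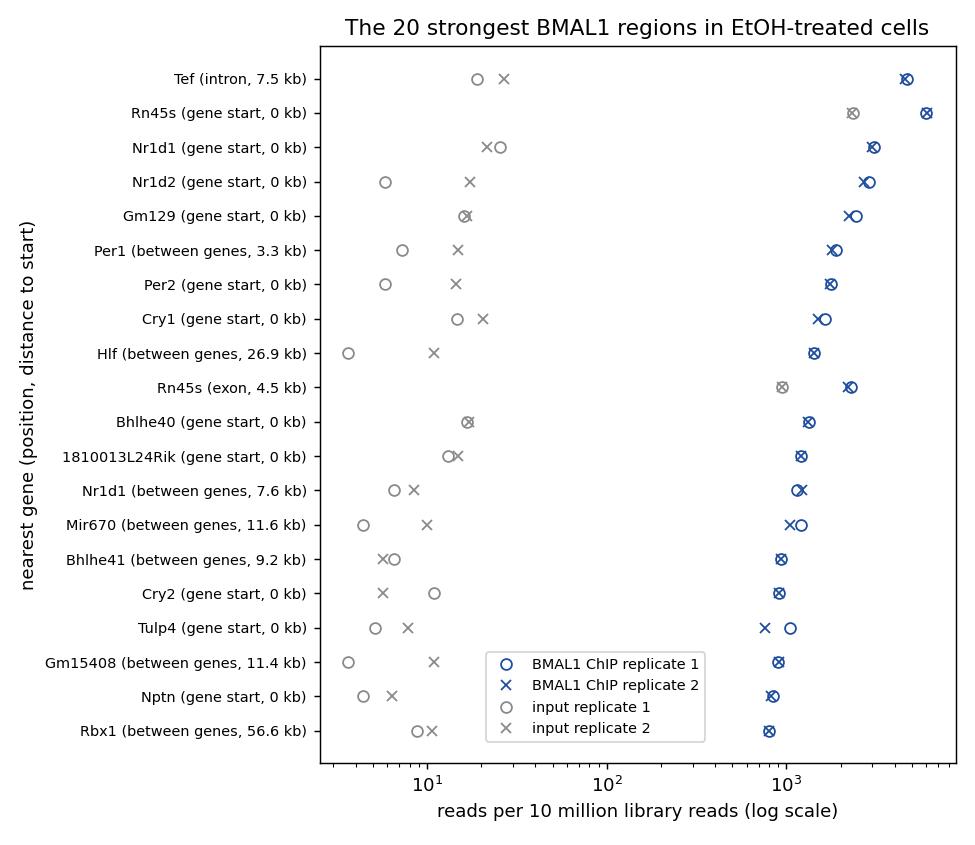
Levels (RP10M, log axis) of the strongest 20 regions in each BMAL1 and input library, with the distance of each from the nearest gene start. BMAL1 values sit 78.2- to 206-fold above input at 18 regions, and only the 2 Rn45s regions show high inputs.

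Where the activators and the enzymes that act on PER and CRY had a region within 10 kb, it was weak. Clock had 1 region, over its start, with 22.2 and 18.2 RP10M against 2.18 and 1.06 in the inputs (rank 2720). Arntl, Arntl2 and Npas2 had none within 10 kb. Of 13 kinase and ligase genes that modify PER and CRY, only Gsk3b had a region within 10 kb (15.6 and 10.2 RP10M). Within 50 kb, 5 of the 13 had one, against 32.3% of all annotated genes. Of all 23287 annotated genes, 3924 (16.9%) had a region within 10 kb of the start. The counts of 1 of 4 activators and 1 of 13 enzymes were not tested against that share. Among the Period, Cryptochrome, REV-ERB, DEC, Ciart, PAR bZIP and Nfil3 genes it was 13 of 14, and 13 of 16 with Rora and Rorb, which had none.

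Clock outputs were mixed, with 9 of 20 genes near a region. Tspan4, a tetraspanin, was strongest with 710 and 708 RP10M 764 bp from its start. Wee1, a kinase that holds back mitosis, had 344 and 326 RP10M over its start. Klf9 and Klf10, zinc finger factors, had 6 and 3 regions with strongest levels of 318 and 331 and of 207 and 204 RP10M. Nampt, the rate-limiting enzyme of NAD salvage, was lower with 85.9 and 81.1 RP10M. Noct (listed as Ccrn4l), a circadian phosphatase, had 44.4 and 38.0 RP10M 290 bp from its start. Por, Cdkn1a and Vegfa had at most 21.5 RP10M in either library. The 11 outputs with no region within 10 kb were Usp2, Tsc22d3, Klf15, Gys2, Ppara, Pck1, Rgs16, Lonrf3, Alas1, Prok2 and Avp.

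BMAL1 regions at the clock genes did not stand in the same order as mRNA levels. Hlf and Bhlhe41, with strong regions, had 0.170 and 0.173 and 0.659 and 0.691 RPKM. Nfil3, with no region, had 14.3 and 12.4 RPKM. Tef and Bhlhe40 had both strong regions and 28.9 and 27.4 and 31.8 and 28.6 RPKM. Over all genes, however, a region went with expression. The 551 genes whose strongest region within 10 kb was in the top 10% had a median of 18.5 and 18.04 RPKM, and the 817 genes with only a region of the lowest 25% had 13.97 and 13.9. The 19363 genes without a region had 0.0588 and 0.0576, and 36.7% of them were at 0 in both libraries.

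Beyond the clock, cell growth and stress genes carried regions below the levels of the leading clock genes. The cell cycle list shares Wee1 and Cdkn1a with the clock outputs. In it 12 of 25 genes had a region, led by Ccne2 (cyclin E2, 616 and 528 RP10M) and Cdk4 (499 and 476), both over the start. In the autophagy and lysosome list it was 13 of 25, led by Lamp1, a lysosomal membrane protein, with 657 and 597 RP10M. Mcoln1, a lysosomal ion channel, had 231 and 206. Gabarap counted through a region at the Dvl2 start 8884 bp away (407 and 382 RP10M), which may belong to either gene.

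Beyond the clock gene lists, NAD and redox genes (13 of 19) and heat shock and unfolded protein genes (13 of 20) had the highest shares. The NAD list shares Nampt with the clock outputs and Sirt1 with the clock coregulators. Sirt1, an NAD-dependent deacetylase, had 212 and 190 RP10M and Nfe2l2, a regulator of antioxidant genes, 181 and 197. Hspd1 and Hspe1, mitochondrial chaperonin genes with a shared promoter, had the same region with 215 and 189 RP10M. Ddit3, an unfolded protein response factor, had 135 and 123. For Hsp90ab1 the strongest region was at the Slc35b2 start, 8947 bp away.

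Metabolic lists followed. Glycolysis had 9 of 17 genes with a region and a maximum of 77.0 and 81.7 RP10M at Ldha, lactate dehydrogenase A. Sterol synthesis had 10 of 24, led by Pmvk, phosphomevalonate kinase (266 and 266 RP10M), and Lss, lanosterol synthase (133 and 140.6). Immediate early genes had 9 of 16, and nuclear receptors of metabolism 8 of 16, with Thra and Rara at 122 and 119 RP10M on average. Of clock coregulators 8 of 18 and of other E-box bHLH factors 9 of 24 were near a region, and cytosolic ribosomal protein genes had 9 of 30, none above 60.7 RP10M on average. The bHLH factors were led by Mnt (176 and 201), Hes1 (173 and 150) and Max (142 and 121 RP10M).

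The remaining lists had shares near that of all genes (16.9%). Oxidative phosphorylation had 3 of 25 (Atp5d, Ndufb8 and Ndufs1) and collagen and matrix genes 3 of 21. Atp5d counted through a region at the Dos start, 2879 bp away. The Ndufs1 region lay 355 bp from its start and 346 bp from that of Eef1b2. The bHLH-PAS family apart from the clock had 1 of 11, Hif1a, a hypoxia factor, with a strong region over its start (424 and 451 RP10M). In all, 140 of 339 listed genes had a region within 10 kb. The lists are no random draw of genes, and their shares were not tested against the background. That background includes genes without mRNA reads, and a share among expressed genes alone is not given here.

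**Figure D3:**
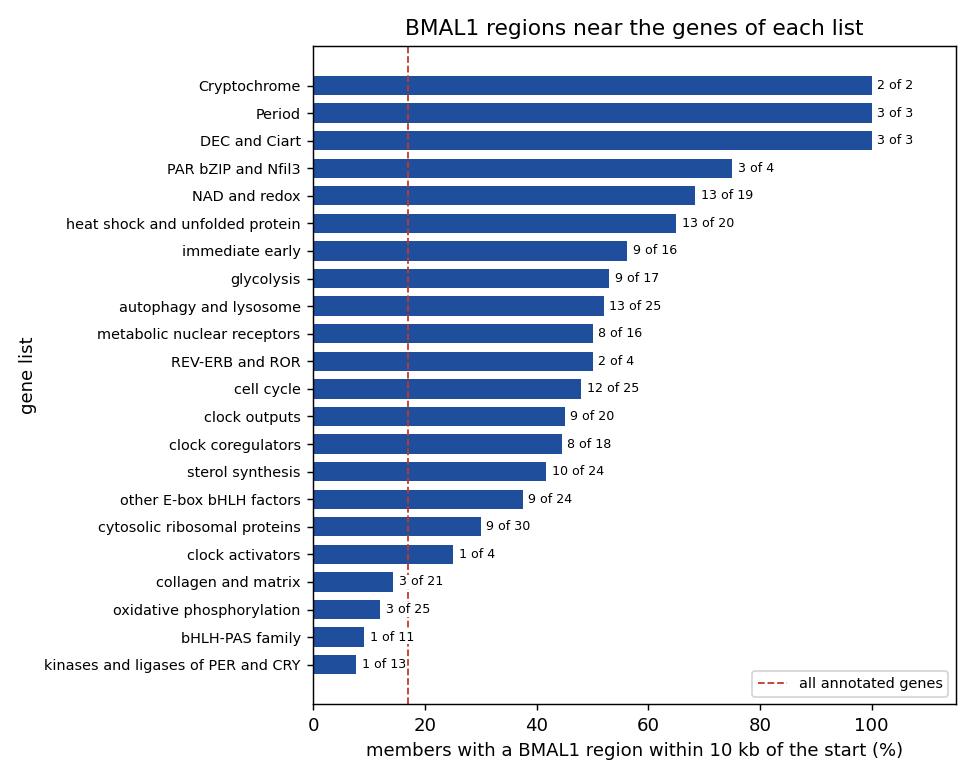
Share of the annotated members of each of 22 gene lists with a BMAL1 region within 10 kb of the start, with counts, and the share of all annotated genes (16.9%) as a line. Period, Cryptochrome and DEC and Ciart genes are at 100%, and the kinases and ligases, bHLH-PAS, oxidative phosphorylation and matrix lists have 1 to 3 genes near a region each.

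Most regions lay at gene starts. With a limit of 1 kb between region edge and start, 2944 regions (62.1%, 95% Wilson interval 60.7 to 63.5%) were at a start, 854 (18.02%) in introns, 854 (18.02%) between genes and 88 (1.86%) in exons. Of regions at a start, 1431 (48.6%) covered it and 1790 (60.8%) had their midpoint within 200 bp. The median midpoint was 13 bp downstream, and 47.1% of midpoints were upstream. Of regions in introns or between genes, 190 were over 100 kb from any annotated start.

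Position made little difference to the typical level but more to the top of the range. Median BMAL1 levels were 23.8 RP10M at starts, 23.2 in introns, 23.7 between genes and 23.7 in exons. The median at starts was above that between genes by 0.741 RP10M in replicate 1 and by 0 in replicate 2, and per kb of region it was lower in both libraries (114 against 118, and 101 against 106). The 90th percentiles were 108 RP10M at starts, 71.2 in introns and 83.7 between genes. Gene starts made up 71.7% of the strongest 10% (67.5 to 75.6%), 56.4% of the regions ranked between 25 and 50%, and 66.1% of the lowest 25%. The share was thus lowest in the middle of the list.

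**Figure D4:**
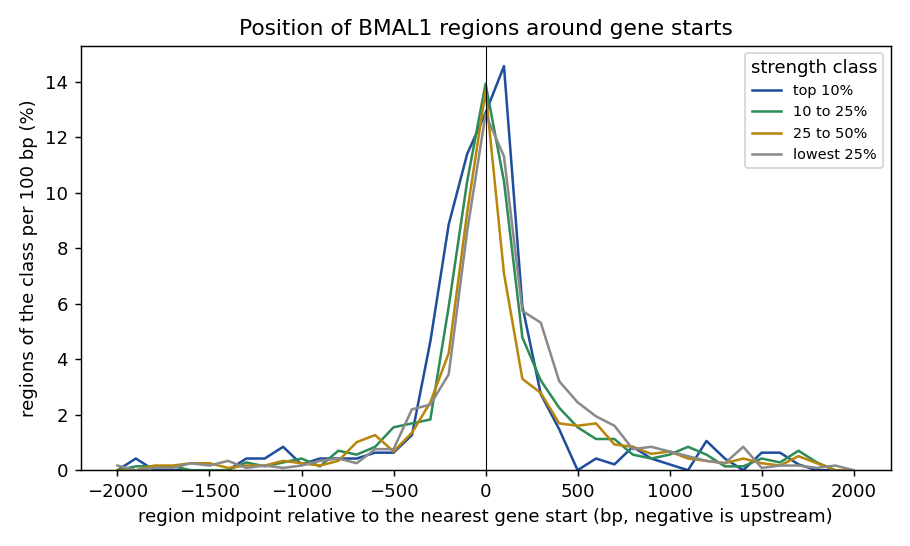
Share (%) of the BMAL1 regions of a strength class by distance of the midpoint from the nearest gene start, in 100 bp bins. Classes drawn are the strongest 10%, 10 to 25%, 25 to 50% and the lowest 25%. Region counts are not drawn. Summed over all classes, with 50 to 75% included, they peak in the bin centred on the start, with 624 regions. In the strongest 10% the peak is in the next bin downstream (69 regions, against 61 at the start).

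Regions away from starts included some of the strongest. Between genes, beside the Per1, Hlf, Nr1d1 and Bhlhe41 regions, one near Mir670 (chr2:94272985-94273834, 11586 bp from its start) had 1201 and 1050 RP10M. A region near Gm15408 (chr5:148994624-148995597) had 898 and 910 RP10M, and RefSeq places a start of 5930430L01Rik within it. One lay 56639 bp from Rbx1, a ubiquitin ligase subunit (804 and 804 RP10M). In introns, after Tef, the strongest were near Ap5s1 (730 and 709), Phf17 (613 and 571), Hnrnpf (452 and 420) and Pfkfb3, a regulator of glycolysis (447 and 443 RP10M). RefSeq places further starts of Phf17 (Jade1) and Hnrnpf at these regions, and 1 window of each holds CACGTG.

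By ratio to input rather than level, the order changed. Among regions with at least 100 reads in each BMAL1 library, the 10 highest ratios ran from 148- to 206-fold. Nr1d2, Tef, Per2, Per1, the distal Hlf, Nr1d1 and Bhlhe41 regions were joined by Tbcel, a tubulin cofactor gene (570 and 532 RP10M, 188-fold), a region 63557 bp from Prps1, which makes a nucleotide precursor (586 and 615, 165-fold), and a region 82812 bp from Lsm3 (319 and 298, 206-fold). At the Lsm3 region the inputs were 0.728 and 1.77 RP10M (1 and 5 reads), so its ratio rests on few input reads. The Tbcel and Prps1 ratios also rest on few, with 4 and 8 and 5 and 10 input reads. Of the strongest 20 regions by BMAL1 minus input, 10 were also among the 20 with the highest ratio. By BMAL1 minus input per kb of region, 12 were also among the strongest 20.

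Regions with high input need separate reading. The Rn45s region at chr17:39843018-39846104, in the gene of the ribosomal RNA precursor, had 5972 and 6029 RP10M with BMAL1 and 2350 and 2325 RP10M in the inputs. That was 2.57-fold, the second rank by difference and rank 4723 of 4740 by ratio. The other 3 Rn45s regions were 2.37- to 2.48-fold above input, and the region at Pisd-ps3 on unplaced sequence 2.76-fold. The ribosomal RNA gene is repeated in the genome, and unplaced sequence can resemble other loci, so these values are uncertain. Without the 4 Rn45s and 3 unplaced regions, reads in regions were 19.5-fold higher in BMAL1 libraries, and the strongest 10% held 53.1% of the signal. Other regions with high input stayed in these values. Among them were regions nearest Axin2 (mean BMAL1 312, input 118 RP10M), Cdk8 (261 and 114) and Filip1l (242 and 77.8).

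The 21 regions not called above input had a median length of 17 bp and at most 8 reads in a BMAL1 library. Among them were pieces at Esyt2 (2.96 and 2.84 RP10M, against 0.728 and 1.42) and Ap3d1 (2.96 and 1.13, against 0.728 and 1.06). At this depth a difference from input was not detectable there, since 3 reads equal 2.22 and 1.70 RP10M in the BMAL1 libraries.

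E-boxes near the start were more frequent the stronger the region. The E-box CACGTG, which reads the same on both strands, was searched in RefSeq promoter windows of 300 bases, from 250 before to 50 after the start. A window was assigned to a region that overlapped it by at least 50 bases. CACGTG was in 60.9% of 353 windows of the strongest 10% of regions (95% Wilson interval 55.7 to 65.9%), then in 54.7, 40.2 and 28.6%, and in 23.1% of 329 windows of the lowest 25% (18.9 to 27.9%). It was in 4.84% of 30737 windows with no region and in 7.15% of all 32817 windows. Windows with at least 2 CACGTG fell from 21.8% to 1.22% across the same classes, with 0.208% in windows without a region. Since strong regions are wider and 1 region can overlap several windows, the windows are not independent.

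The other motifs searched showed smaller differences between classes. This is a description, with no test. The GC box GGGCGG, on either strand, was in 74.4 to 78.3% of windows in all 5 classes, against 32.8% without a region and 35.6% of all windows. The ETS-type motif CCGGAAG was in 16.4 to 23.3% (8.86% of all windows), and CACGCG in 27.2 to 33.8% (9.26% of all). AACGTG was in 6.02 to 8.97% (4.69% of all), and CATGTG in 6.75 to 11.6%, below the 14.2% of all windows. TGACGTCA, the cAMP response element, was in 1.82 to 5.06% (1.79% of all). TGACTCA (1.496 to 4.82%) and AGGTCA (8.55 to 15.0%) lay below their shares in all windows (5.20 and 16.3%), and the D-box forms TTATGTAA and TTACGTAA were in at most 0.850% of any class. Windows with a region had a median of 27 CpG against 6 in windows without one. CACGTG and AACGTG cannot overlap, but a window can hold several of these motifs and so count for each.

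**Figure D5:**
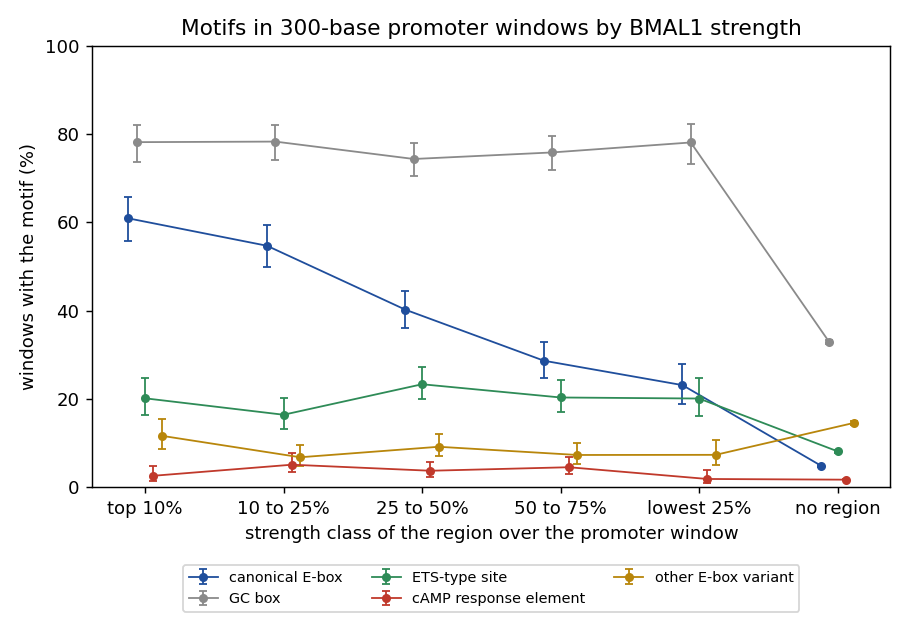
Share of RefSeq promoter windows (300 bases) that hold each motif, by strength class of the overlapping BMAL1 region and for windows without a region, with 95% Wilson intervals (the other E-box variant is CATGTG). The E-box share falls from 60.9 to 23.1% across the classes, while the GC box stays between 74.4 and 78.3%.

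The number of E-boxes went with the level of the region. Regions whose windows held no CACGTG (943) had a median of 24.4 and 22.7 RP10M in the BMAL1 libraries, those with 1 (618) 43.0 and 40.3, those with 2 (95) 112 and 105, and those with 3 or more (15) 327 and 318. Input medians rose far less, from 2.18 and 2.12 to 4.37 and 4.599 RP10M. Median length rose as well, from 239 to 679 bp. As in the printed stretches, Mfsd1, a lysosomal transporter gene, had 5 E-boxes (539 RP10M on average), and Lamp1 had 4. The Cdk4 window, not printed, also held 4. Pairs of E-box forms with 6 or 7 bases between them were in 3 windows of the strongest 10%, at Tulp4, Lamp1 and 5930430L01Rik, and in 3 windows without a region. Tulp4, of the tubby-like family, had 1049 and 760 RP10M, and Nptn, a membrane glycoprotein with a wider pair, 838 and 823.

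Several of the strongest regions had no CACGTG in the window. Of the strongest 100 regions, 61 overlapped a window, of which 42 held CACGTG, 3 only AACGTG and 16 neither. Nr1d1 and Cry2 held AACGTG alone. The Nr1d2, Per3, Dbp and Hlf windows held neither form, although their regions ran from 319 to 2868 RP10M in single libraries. No match says only that these letters are not in the window, as these regions extend beyond 300 bases. Per2 was not searched.

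Many promoters with an E-box had no region. Of 2346 windows with the motif, 859 (36.6%, 34.7 to 38.6%) overlapped a region, and of 195 windows with at least 2 it was 131 (67.2%, 60.3 to 73.4%). Genes of windows with CACGTG and a region had a median of 18.5 and 18.4 RPKM in the EtOH mRNA libraries. Those with CACGTG and no region had 0.207 and 0.180 RPKM, and 26.8% of them were at 0 in both. The windows also differed in CpG, with medians of 26 and 9. Which of these properties goes with occupancy on its own was not tested.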

How the data were processed

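BMAL1 ChIP-seq, input and mRNA libraries of EtOH-treated cells were used, grouped by the labels. Per the file names of its entries, the region list holds MACS2 peaks of the control cells (mm10, per the submitters' processing notes, which also name bedtools 2.25.0, featureCounts and DESeq2). The aligner, and whether replicates were pooled for calling, are not given in the sources used here. For each library the authors deposited the read count in each of 4740 regions. They also deposited the caller's score, its fold enrichment (a ratio to background) and its −log10 p and q values, which entered no test. The deposited signal table is named RPKM, but its values equal 5 plus reads per 10000000 library reads, from which library totals followed as whole numbers. The gene counts deposited by the authors come from featureCounts (v1.5.0-p1 per the file headers), and RPKM values were computed here from these counts and exon lengths.

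The test of regions was that of edgeR 4.0.16 under R 4.3.3 (robust quasi-likelihood fit, library totals as library sizes, no filter, no further scaling, Benjamini-Hochberg over all regions). The alternatives were DESeq2 1.42.0, scaling over regions, a filter of 10 reads in 2 libraries, all 8 ChIP and input libraries, a replicate block and leaving out each library. The script was tested on simulated data. Gene starts were the upstream ends of the outermost exons in the count table, and 133 genes with several chromosomes or strands were dropped. No genome was used. Motifs were therefore searched in RefSeq promoters of GRCm38.p6 in place of windows around region midpoints, and sequences of whole regions were not analysed here. Named regions were set by rule: the strongest 20, the strongest 5 in exons, introns and between genes, the 10 highest ratios and the 5 largest replicate differences with at least 100 reads per BMAL1 library, the 5 highest inputs, up to 5 not called, the strongest region of each clock list gene and of the top 3 genes of each other list. Members and lists were chosen with earlier results of these data known. Mfsd1, the multi-region layouts and the printed stretches were chosen after their values were seen. A result of 1 listed gene is not reported here.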

Additional observations from a re-analysis of the deposited data

How the results depend on the processing

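The count of regions above input was 4719 with the replicate block as without it, and the block changed no call among the 93 named regions. Same-numbered BMAL1 and input libraries deviated together over regions with r = 0.085. Since the inputs differed by no more than counting noise, this value cannot show whether same-numbered libraries belong together. Leaving out each library gave counts of 4653 to 4714 and median log2 ratios of 3.52 to 3.80. A pseudocount of 1 RP10M on per-region values gave a median of 3.05.

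Scaling over the regions forces their median to about 0. It gave 426 (TMM) and 288 (DESeq2) regions above input, 40 and 14 below it, and median log2 ratios of 0.011 and −0.038. Of the 93 named regions, 50 and 45 then kept their direction and call, 23 and 27 lost the call, and 20 and 21 turned sign. The log2 ratios with TMM and DESeq2 scaling were −2.30 and −2.35 at the Rn45s gene start, −2.41 and −2.45 at the Rn45s region from 39847505, −2.34 and −2.39 from 39846486, and −2.41 and −2.45 from 39846187. They were −2.19 and −2.24 at Pisd-ps3, −2.06 and −2.10 at Filip1l, −0.042 and −0.040 at Fosl2, −0.39 and −0.45 at Ccrn4l, −0.81 and −0.82 at Rps12, and −0.45 and −0.55 at Cdkn1a. They were −0.57 and −0.59 at Por, −0.62 and −0.72 at Col5a1, −0.69 and −0.58 at Ndufb8, −0.84 and −0.92 at Eef1b2, −1.07 and −1.04 at Vegfa, −2.31 and −2.36 at Esyt2, and −2.54 and −2.61 at Ap3d1. They were −2.86 and −2.97 at Gm16907, −2.54 and −3.07 at Junb (from 84980346), and −2.46 and −2.51 at Pcbp4, while Rps2 turned only with DESeq2 (−0.024). The uncalled pieces at Gm16907 and Junb also turned when 1 library was left out, with ranges of −0.64 (without BMAL1 replicate 2) to 1.31 and of −0.57 (without input replicate 2) to 4.98. The latter value, without input replicate 1, made the Junb piece called above input (edgeR adjusted p = 0.0103).

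Without Rn45s and unplaced regions the BMAL1 share of reads was 19.5-fold that of input. Gene starts took 56.4% of regions at 500 bp, 67.0% at 2500 bp and 64.8% with RefSeq windows added, an alternative chosen after seeing the data, as were summed inputs and either E-box form. The median at starts minus that between genes was −4.12 per kb of region. Of the strongest 20 regions, 12 stayed by BMAL1 minus input per kb and 10 by ratio. By BMAL1 reads per kb among regions of at least 50 bp, 14 stayed. Windows of 100 and 200 bases held CACGTG in 22.1 and 47.0% of the strongest 10%. In the lowest 25% the shares were 7.90 and 15.5%, and without a region 1.71 and 3.55%. Regions of few reads limit the lower end of the list.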

Other observations

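The share of genes with a BMAL1 region within 10 kb of the start differed between chromosomes, from 4.92% of 995 annotated genes on the X chromosome to 25.5% of 761 on chromosome 19. Chromosome 7, with 2118 annotated genes, had 9.87%. The number of expressed genes per chromosome was not brought into this count.

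Clusters of regions were not limited to clock genes. Of genes with a region within 10 kb, 865 had at least 2 and 69 at least 4. Hmga1, which encodes an architectural chromatin protein, had the most, with 8, although its strongest averaged only 150 RP10M. Cirbp, a cold-inducible RNA-binding protein whose level follows body temperature rhythms, had 6 with a strongest of 139 RP10M. Thra and Junb also had 6, and Brd2, a bromodomain protein gene, had 5 with a strongest of 510 RP10M. Nearby genes can share regions, as at Dvl2, Gabarap and Phf23, each with 6 and the same strongest level of 394 RP10M.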
